A study of Taeniopygia guttata with 24 samples.

Results

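The genes GABRD, GABRA3, GABRB1 and GABRG3 encode subunits of the GABA-A receptor and were followed in the zebra finch telencephalon between hatching and adulthood. They were picked by symbol from the supplementary tables of the study because their levels over the ages differ in shape, and all 4 were matched by Ensembl identifier to the table of 18618 genes. All 4 passed the filter on low values (at least 1 cpm in at least 3 samples, where cpm is the read count scaled to a common library size), as did 13891 genes in all, and 7 other genes with the symbol of a GABA-A receptor subunit. The values that chose the members are their mean levels at the 4 ages, so that their changes with age are a description here, given with a standard error (SE) and no test. The sex of the birds played no part in the choice, and the sex differences were tested.

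The GABA-A receptor is a chloride channel in the cell membrane of neurons that opens when the transmitter GABA binds, and it carries most of the fast inhibition in the vertebrate brain. It is assembled from several subunits, usually of the alpha and beta families with a gamma or a delta subunit. The beta subunits help to form the site for GABA, the gamma subunits help to hold the receptor at synapses, and in rodents the receptors with a delta subunit lie mostly outside the synapse and respond to the low GABA level of the surrounding fluid. In young neurons that hold much chloride GABA can excite, and in the rodent forebrain the mix of alpha subunits changes after birth, with alpha 3 prominent early.

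Whole telencephalons came from males and females on days 1, 20 and 65 after hatching (days post hatch, dph) and from adults, which were older than 170 dph according to the labels. The labels used here name no genotype, treatment or batch, and they tell the 8 groups apart by sex and age only. Each of the 3 samples per sex and age was RNA of 3 birds mixed in equal parts, and it is therefore a mean over those birds and over all cell types of the telencephalon. The libraries held 16680575 to 28772178 counted reads, and 1 cpm stood for 16.7 reads in the smallest and 28.8 reads in the largest library.

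Levels are given as cpm after scaling with TMM (trimmed mean of M-values, which evens out differences in the makeup of libraries). The mean TMM factor was 1.14 for the 1 dph libraries, 0.961 for those of 20 dph, 0.945 for those of 65 dph and 0.967 for those of adults. Scaling by library totals in their place shifted the median log2 fold change with age of all genes to -0.27, against -0.02 with TMM, and every change from 1 dph given here would shift by about as much. Of the markers of the telencephalon, 5 of 8 were found by symbol (EMX2, MEIS2, NEUROD6 and TBR1 among them), and their summed level lay between 643 and 683 cpm in adults and between 1270 and 1550 cpm at 1 dph. Of the markers of thalamus and hypothalamus 4 of 6 were found, and they summed to 43.2 to 74.8 cpm after 1 dph, against 143 to 196 cpm at 1 dph. Of these, LHX9, TCF7L2 and OXT fell by 2.77, 3.74 and 4.11 on the log2 scale, whereas HCRT, which encodes the hypothalamic peptide orexin, rose by 1.81 and made up most of the later sum, with 46.5 ± 7.02 cpm in adults and 11.5 ± 1.73 cpm at 1 dph (SD, n = 6 each). ZIC1, the one marker found of midbrain, hindbrain and cerebellum, also fell, to between 3.93 and 8.05 cpm after 1 dph, against 44.2 to 56.7 cpm at 1 dph.

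GABRD (ENSTGUG00000002966, chromosome 21), the delta subunit, was low at hatching and among the strongest rises of the data set afterwards. At 1 dph it had 5.79, 5.37 and 6.75 cpm in males, against 6.33, 5.79 and 8.40 cpm in females. At 20 dph it had 196, 210.5 and 209.8 cpm in males, against 222, 190.4 and 205 cpm in females. No sample at 20 dph was near the level of any sample at 1 dph, where the gene was still covered by 139 to 245 reads per library.

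The level of GABRD went on rising more slowly. It was 309, 303 and 316 cpm in males at 65 dph, against 306, 324 and 288 cpm in females. Adult males had 334, 339.7 and 366 cpm, against 372, 358 and 347 cpm in adult females. The 6 samples of each age lay wholly above those of the age before, also between 65 dph and adults, where the lowest adult sample had 334 cpm and the highest sample of 65 dph 324 cpm. The means were 6.40 ± 1.09, 205 ± 11.2, 308 ± 12.3 and 353 ± 14.8 cpm (SD, n = 6) from 1 dph to adults.

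On the log2 scale, the mean of the later ages exceeded 1 dph by 5.46 (SE 0.07), a fold of 44.0, which ranks 11 of 13891 genes from the highest rise. The step to 20 dph was 5.004 (SE 0.07), that to 65 dph 0.58 (SE 0.06) and that to adults 0.20 (SE 0.06). By 20 dph the mean cpm had covered 57.5% of the difference between 1 dph and adults, and by 65 dph 87.03%. An upward step without overlap of samples at each of the 3 steps was found in 84 genes (0.605% of those tested).

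GABRA3 (ENSTGUG00000006327, chromosome 4A), the alpha 3 subunit, was the one gene of the 11 subunit genes tested with its highest mean at hatching. At 1 dph it had 121, 115 and 114 cpm in males, against 127, 108 and 109.8 cpm in females. At 20 dph it had 53.4, 57.9 and 46.1 cpm in males, against 60.6, 61.4 and 57.0 cpm in females. Every sample at 1 dph lay above every later sample. Between 1 and 20 dph, 53.7% of the genes tested had no overlap in either direction.

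Later levels of GABRA3 were almost flat. They were 52.5, 48.3 and 42.8 cpm in males at 65 dph, against 51.0, 46.8 and 47.3 cpm in females. Adult males had 52.4, 52.6 and 48.9 cpm, against 50.3, 53.6 and 50.3 cpm in adult females. Samples of 20 dph, 65 dph and adults overlapped, and the adult and 65 dph means differed by 3.25 cpm, less than the larger SD of 3.40 cpm.

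The means of GABRA3 were 116 ± 7.13, 56.1 ± 5.62, 48.1 ± 3.40 and 51.4 ± 1.79 cpm (SD, n = 6) from 1 dph to adults. The later ages differed from 1 dph by -1.16 (SE 0.04) on the log2 scale, so that the level at 1 dph was 2.24 times the later one. The steps were -1.05 (SE 0.06), -0.22 (SE 0.06) and 0.09 (SE 0.06), and 92.7% of the difference between 1 dph and adults was covered by 20 dph. As the RNA is from whole telencephalons, fewer cells of a type and less RNA per cell cannot be told apart for this gene or any other.

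GABRB1 (ENSTGUG00000008295, chromosome 4), the beta 1 subunit, rose in steps spread over the whole course. At 1 dph it had 1.98, 2.63 and 1.89 cpm in males, against 2.06, 1.67 and 2.98 cpm in females. At 20 dph it had 4.15, 4.52 and 3.76 cpm in males, against 4.05, 4.37 and 4.54 cpm in females. The samples of these ages did not overlap, as was found in either direction for 53.7% of the genes tested. The gene was covered by only 83 to 124 reads per library at 20 dph and 47 to 87 at 1 dph.

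At the later ages GABRB1 was higher again. At 65 dph it had 8.50, 7.67 and 7.01 cpm in males, against 7.22, 6.05 and 7.69 cpm in females. Adult males had 11.1, 8.68 and 11.0 cpm, against 9.38, 9.55 and 8.44 cpm in adult females. Samples of 65 dph lay wholly above those of 20 dph, where 15.1% of the genes tested had no overlap in either direction. Adults and 65 dph overlapped by 1 sample each (8.44 cpm in an adult female sample, against 8.50 cpm in a male sample of 65 dph).

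The means of GABRB1 were 2.20 ± 0.50, 4.23 ± 0.30, 7.36 ± 0.82 and 9.69 ± 1.13 cpm (SD, n = 6) from 1 dph to adults. The later ages exceeded 1 dph by 1.60 (SE 0.11) on the log2 scale, a fold of 3.04. The steps were 0.94 (SE 0.13), 0.80 (SE 0.12) and 0.39 (SE 0.12). Only 27.1% of the difference in mean cpm between 1 dph and adults was covered by 20 dph and 68.8% by 65 dph, the lowest shares among the 11 subunit genes. Replicates spread by 0.21 on the log2 scale, of which counting error at its median of 110.5 reads would give 0.14.

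GABRG3 (ENSTGUG00000010416, chromosome 1), the gamma 3 subunit, had its highest mean at 20 dph, and its ages were the least separated. At 1 dph it had 5.12, 3.52 and 4.21 cpm in males, against 3.87, 3.98 and 4.46 cpm in females. At 20 dph it had 6.90, 5.62 and 7.77 cpm in males, against 6.85, 7.29 and 7.21 cpm in females. All samples at 20 dph were above all at 1 dph, with 5.62 cpm in the lowest of 20 dph and 5.12 cpm in the highest of 1 dph. A lack of overlap at this step, in either direction, was found for 53.7% of the genes tested.

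The levels of GABRG3 then lay between those values. At 65 dph it had 6.02, 5.62 and 6.95 cpm in males, against 5.35 and 6.49 cpm in 2 female samples and 3.89 cpm in another. Adult males had 6.42, 6.61 and 5.40 cpm, against 6.31, 6.21 and 4.58 cpm in adult females. Samples of 65 dph overlapped with those of every other age, and 4 of 6 adult samples lay above the lowest sample of 20 dph.

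The means of GABRG3 were 4.19 ± 0.55, 6.94 ± 0.73, 5.72 ± 1.07 and 5.92 ± 0.78 cpm (SD, n = 6) from 1 dph to adults. The later ages exceeded 1 dph by 0.55 (SE 0.11) on the log2 scale, a fold of 1.47. The steps were 0.72 (SE 0.13), -0.29 (SE 0.13) and 0.06 (SE 0.13). The last step lay within its SE and changed sign to -0.011 in males alone and to -0.035 without replicate 3 of the females at 65 dph, the sample of 3.89 cpm. With 83 to 188 reads per library, counting error would give a spread of 0.13 on the log2 scale, against 0.22 between replicates.

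**Figure D1:**
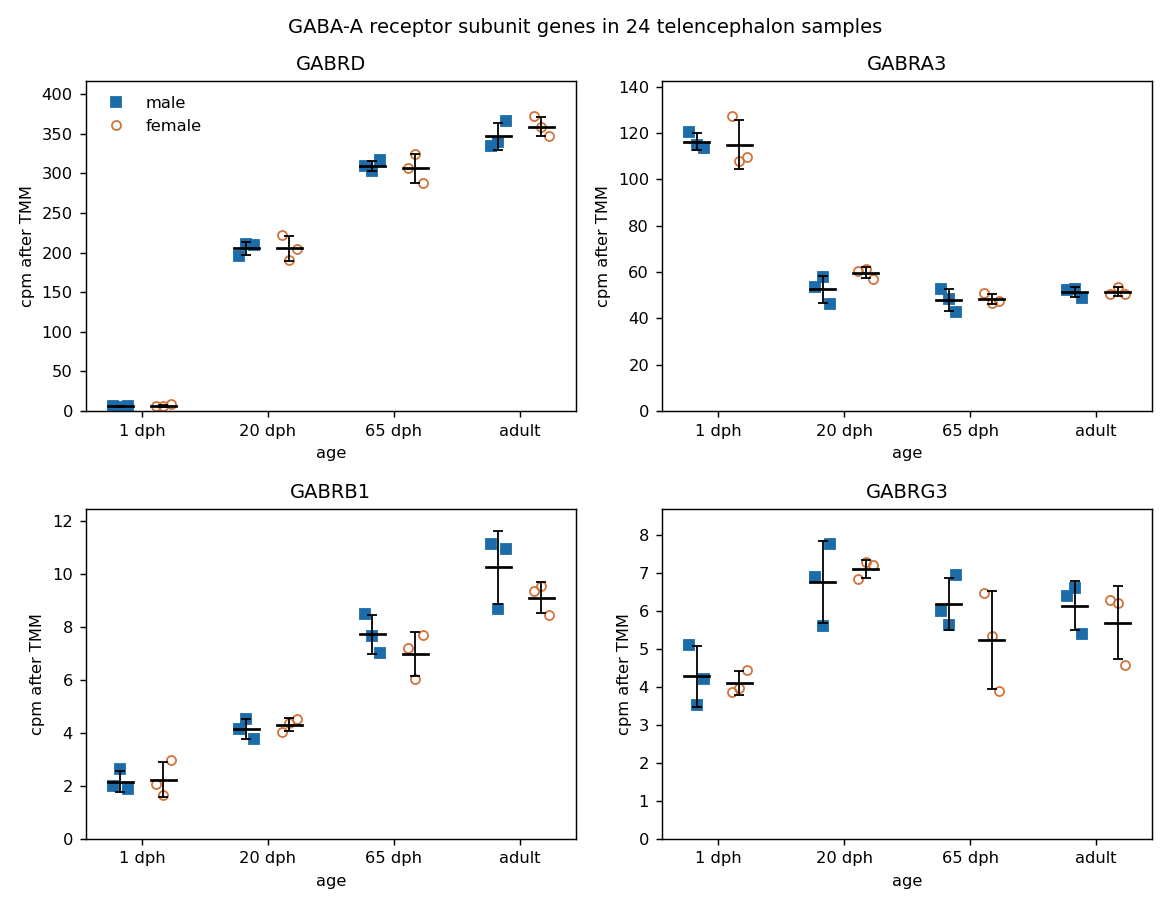
Level of each gene (cpm after TMM, linear axes that start at 0 and differ between panels) in the 24 samples by age, males as filled squares left of females as open circles, with the mean and SD of 3 samples in black. GABRD rises at each step, with most of the rise before 20 dph. GABRA3 is highest at 1 dph, GABRB1 climbs up to adults, and GABRG3 has its highest mean of 6.94 cpm at 20 dph.

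Contrasts of the males and of the females were also taken apart within the same fit of all 24 samples. GABRD differed between later ages and 1 dph by 5.55 (SE 0.10) in males and 5.37 (SE 0.10) in females, and GABRA3 by -1.20 (SE 0.06) in males and -1.12 (SE 0.06) in females, all on the log2 scale. GABRB1 differed by 1.67 (SE 0.16) in males and 1.54 (SE 0.16) in females. For GABRG3 the step from 20 to 65 dph was -0.13 (SE 0.18) in males and -0.45 (SE 0.18) in females. The test of this kind of difference, a sex by age interaction over the 4 ages, is given with the sex comparisons.

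Ratios of genes within a library do not depend on how the library is scaled. The log2 ratio of GABRD over GABRA3 was -4.17 ± 0.26, 1.88 ± 0.18, 2.68 ± 0.13 and 2.78 ± 0.10 from 1 dph to adults (SD, n = 6). It ranged from 1.63 to 2.18 at 20 dph and from -4.39 to -3.69 at 1 dph, and the means differed by 6.05. As the genes were chosen for their unlike courses, this is a description. In adults the ratio was 123 times that of 1 dph. As gene lengths differ, only changes of such ratios can be read, not which gene had more transcripts.

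The ratio of GABRB1 over GABRG3, both genes with few reads, moved later. On the log2 scale it was -0.92 ± 0.37 at 1 dph and -0.70 ± 0.23 at 20 dph, which overlapped, 0.37 ± 0.34 at 65 dph and 0.71 ± 0.23 in adults (SD, n = 6). All samples of 65 dph and adults lay above 0 and all samples of 1 and 20 dph below it. The change from 1 dph to adults was 1.63, a fold of 3.08, and it stayed between 1.54 and 1.73 when any single sample was left out.

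**Figure D2:**
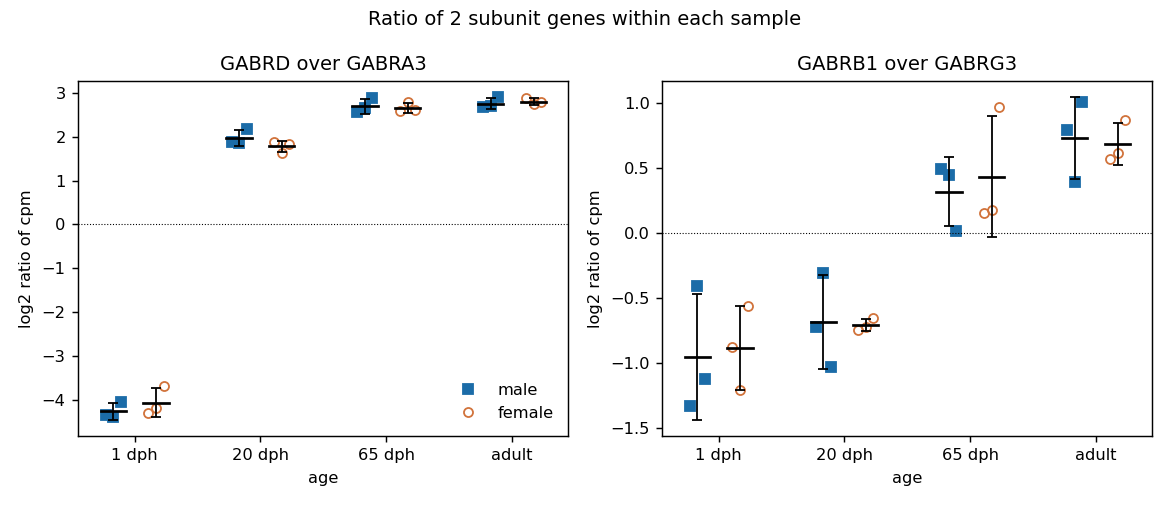
Log2 ratio of GABRD over GABRA3 (left) and of GABRB1 over GABRG3 (right) within each of the 24 samples by age, males as filled squares left of females as open circles, with mean and SD of 3 samples in black. The left ratio shifts by 6.05 between 1 and 20 dph, and the right one crosses 0 between 20 and 65 dph.

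Among the other 7 subunit genes whose symbols were found were GABRA2, GABRA4 and GABRA5 of the alpha family and GABRB2 of the beta family. The other 10 of the 21 subunit symbols looked for could not be matched and were not analysed here. All 7 were called higher after 1 dph in the stagewise edgeR test (adjusted p at most 3.86e-17 for the 4 named), where 35.1% of the genes tested were called higher and 37.2% lower. Their median log2 fold change was 2.45, against -0.02 over all genes tested. Symbols were found only in the study's supplementary tables as read here, some of them cut short. The genes with a symbol had a median of 0.53, and the share of them called higher is not given here.

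GABRA5, of the alpha 5 subunit, had the largest rise of the 7, with 22.7 ± 2.09, 213 ± 11.99, 249 ± 12.8 and 266 ± 20.6 cpm from 1 dph to adults (SD, n = 6) and a log2 fold change of 3.41 (SE 0.06). GABRB2, of the beta 2 subunit, rose by 2.70 (SE 0.09). GABRA4 rose by 2.45 (SE 0.08) and GABRA2 by 1.95 (SE 0.08). The log2 fold change of GABRD lay above and those of GABRG3 and GABRA3 below the range of these 7.

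At the step to 20 dph, all 7 were called higher with Benjamini-Hochberg adjustment over all genes (background 35.9% higher). At the step from 20 to 65 dph, 3 of the 7 rose (background 14.6%), among them GABRA4 by 0.33 (SE 0.08) and GABRA5 by 0.22 (SE 0.06). The same step was 0.80 for GABRB1 and 0.58 for GABRD, larger than any of the 7, and negative for GABRA3 and GABRG3. From 65 dph to adults, GABRB2 rose by 0.26 (SE 0.09, edgeR adjusted p = 0.0377), where 10.5% of all genes were called higher.

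The call of GABRB2 at the last step was lost when any of 8 samples was left out (female replicates 2 and 3 and male replicates 1 and 2 of 65 dph, female replicates 1 and 2 and male replicates 2 and 3 of adults), with adjusted p up to 0.216 over all alternatives. It was made neither in males alone nor in females alone.

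**Figure D3:**
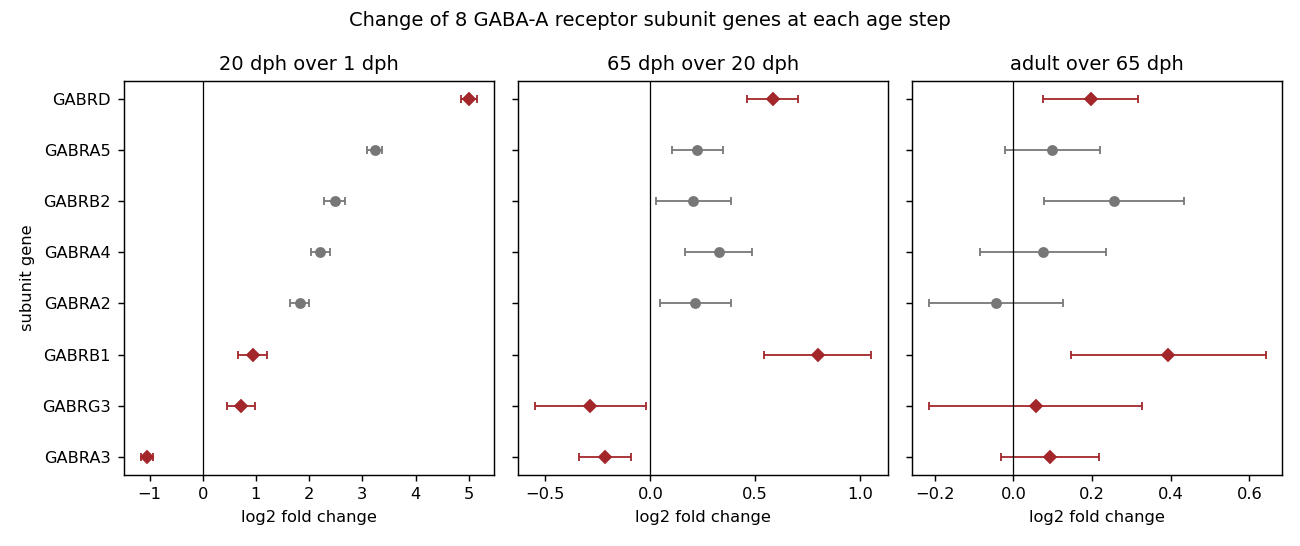
Log2 fold change (x axis, a scale of its own in each panel) of 8 GABA-A receptor subunit genes at the steps to 20 dph, 65 dph and adults, with 95% confidence intervals from the edgeR fit. The 4 genes described here are red diamonds, the 4 others grey circles, ordered by the first step. Intervals of the red genes describe the fit and are no test, as these genes were chosen for their course over the ages. GABRD is at the top and GABRA3 at the bottom of the first step, and GABRB1 has the largest value of the later steps.

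Several subunit genes lie side by side in the genome, and neighbours differed in course. In RefSeq's annotation of the assembly bTaeGut7.mat, GABRG3 lies on chromosome 1 next to GABRA5. The log2 ratio of GABRG3 over GABRA5 within a sample was -2.42 ± 0.16, -4.93 ± 0.13, -5.44 ± 0.31 and -5.48 ± 0.22 from 1 dph to adults (SD, n = 6). The ratio in adults was thus 0.120 of that at 1 dph.

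GABRB1 follows GABRA4 on chromosome 4, and the models of the pair overlap in that annotation. Its log2 ratio over GABRA4 was -1.51 ± 0.38, -2.78 ± 0.20, -2.32 ± 0.28 and -2.003 ± 0.21 from 1 dph to adults (SD, n = 6), so that GABRA4 was ahead by 20 dph and GABRB1 gained on it afterwards. Whether reads of one were counted for the other was not tested, since the Ensembl models used for counting were not examined and the strand setting of the counting is not given in the sources used here. GABRD, on chromosome 21, has no other subunit gene beside it.

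Between the sexes, none of the 4 genes was called at any age. With edgeR's stagewise test 0 of 4 were called at each age, where 5.59% of all genes were called at 1 dph, 4.45% on day 20, 4.87% on day 65 and 2.15% among adults. DESeq2 also called 0 of 4 at each age, but among adults it called only 16 genes in all. Its counts over all genes at the other ages are not given here. An unadjusted edgeR p under 0.05 was found for 1 of 4 at 20 dph and for 0 at the other ages. The share of all genes with such a p is not given here. Males and females overlapped for each gene at each age, also at 20 dph, where 16.8% of all genes did not overlap.

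The lowest adjusted p of the 4 was that of GABRA3 at 20 dph, with 52.5 ± 5.93 cpm in males and 59.7 ± 2.32 cpm in females (SD, n = 3 each). The log2 ratio, male over female, was -0.18 (95% interval -0.36 to -0.01, edgeR adjusted p = 0.151). Without replicate 2 of the males at 20 dph, the sample of 57.9 cpm, the ratio was -0.26 and the difference was called (edgeR adjusted p = 0.0313), and it was called under no other alternative. DCX and SOX11, the 2 of 4 markers of immature neurons found by symbol, were called lower in males at 20 dph. Among the other cell type markers, TEK of endothelial cells was called higher in males at 20 dph (log2 ratio 0.69, edgeR adjusted p = 0.00171). Of 8 markers of dividing and progenitor cells, 0 were called at that age. DCX had 22.9 ± 5.23 cpm in males and 33.8 ± 4.57 cpm in females (SD, n = 3 each, edgeR adjusted p = 0.0209), and SOX11 had 15.4 ± 1.41 cpm in males and 19.3 ± 2.002 cpm in females (edgeR adjusted p = 0.0479). The call of DCX was lost under 6 of 30 alternatives, among them DESeq2 and the loss of female replicate 2 or 3 or of male replicate 2 of 20 dph, and that of SOX11 under 22 of 30, 16 of them the loss of a single sample, with adjusted p up to 0.205 and 0.366 in that order of genes. With Benjamini-Hochberg adjustment per contrast over all genes, edgeR's p was 0.152 for DCX and 0.272 for SOX11. The part of these 2 genes or of the cells they mark in the level of GABRA3 was not tested.

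For GABRD, the log2 ratio, male over female, was -0.20 at 1 dph (95% interval -0.44 to 0.04, edgeR adjusted p = 0.411), with 5.97 ± 0.70 cpm in males and 6.84 ± 1.38 cpm in females (SD, n = 3 each). From 20 dph on, the ratio lay between -0.05 and 0.02, with intervals from -0.22 to 0.19, so that sex differences of GABRD beyond 0.22 on the log2 scale would lie outside them. For GABRB1 the ratio was -0.05, -0.06, 0.14 and 0.17 over the ages, with intervals that reached from -0.45 to 0.52. For GABRG3 it was 0.06, -0.08, 0.24 and 0.11, and the interval at 65 dph ran from -0.14 to 0.63. The intervals of GABRB1 and GABRG3 hold sex differences larger than the one seen for GABRA3 at 20 dph.

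The interaction of sex and age was called by edgeR for 0 of 4 genes (background 1.05% of all genes). The edgeR p, adjusted by Benjamini-Hochberg, ran from 0.883 for GABRA3 to 0.954 for GABRB1. DESeq2 also called 0 of 4 for the interaction, and 287 genes in all. An unadjusted edgeR p under 0.05 was found for 0 of 4. Of the other 7 subunit genes, 0 were called between the sexes at any age or for the interaction by either tool. They had 1 unadjusted edgeR p under 0.05, for GABRB2 at 20 dph (log2 ratio -0.25). Each of the 7 was tested at 4 ages and for the interaction, and over that many tests 1 such p can arise by chance. The share of all genes with such a p is not given here.

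**Figure D4:**
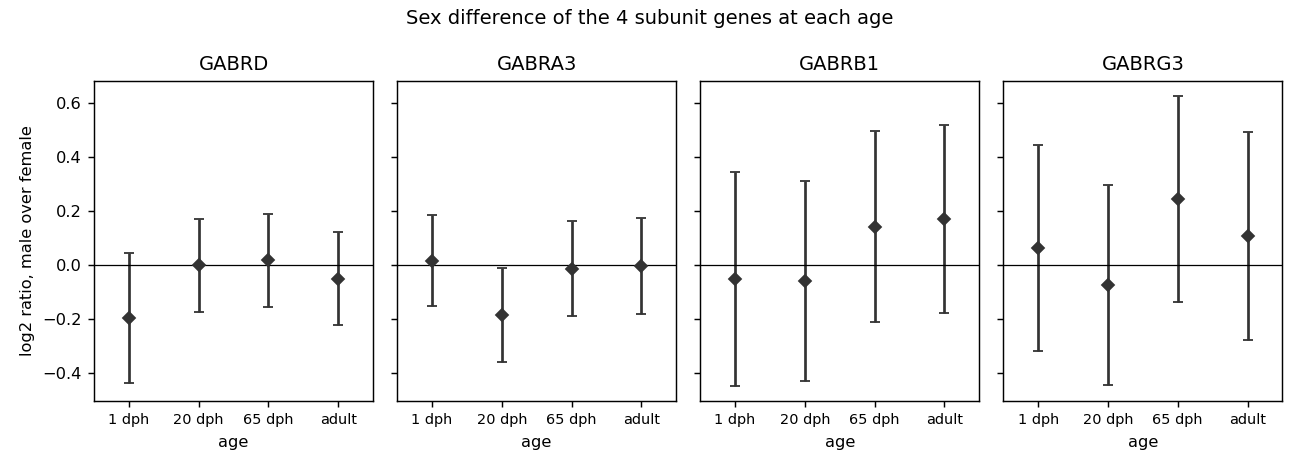
Log2 ratio, male over female, of each of the 4 genes at each age, with its 95% confidence interval from the edgeR fit. All intervals hold 0 but that of GABRA3 at 20 dph (-0.36 to -0.01), and intervals are widest for GABRB1 and GABRG3.

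The receptor works within a larger GABA system, and its other genes were counted from lists. Of 27 symbols of genes that cluster, anchor or traffic the receptor, 11 were found with 12 identifiers, of which 10 rose after 1 dph and 2 fell (background 35.1% higher and 37.2% lower). The median log2 fold change was 1.10, against 0.53 over the genes with a symbol, from which the lists are drawn, and -0.02 over all genes tested. The background shares beside this and every other list are those over all genes tested. The shares among the genes with a symbol are not given here, so the list counts can look more unusual than they are. NSF, a factor of membrane fusion, rose by 2.38 (SE 0.05). PLCL1, whose product binds the receptor and affects its trafficking, fell by 1.20 (SE 0.05), and NLGN3, a postsynaptic adhesion protein, fell by 0.40 (SE 0.03).

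Of 8 genes of GABA synthesis, packing, uptake and breakdown, 5 were found with 6 identifiers and all 6 rose (background 35.1%), with a median of 1.65 against 0.53 over the genes with a symbol. Of 2 identifiers with the symbol GAD1, a GABA-synthesizing enzyme, that on chromosome 7 had 58.5, 160 and 178 cpm at the first 3 ages and 194 cpm in adults and rose by 1.60 (SE 0.08). The other, on no placed chromosome, had 3.56, 10.1, 10.9 and 14.4 cpm and rose by 1.72 (SE 0.16). Which of the copies is the gene is uncertain, as reads could be split between them.

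Of 18 genes of chloride and bicarbonate balance, which sets whether the receptor's current inhibits, 9 were found. After 1 dph 6 rose and 2 fell (background 35.1% higher and 37.2% lower), with a median of 0.41 that lay below the 0.53 of the genes with a symbol, and SLC12A2 was not called at -0.11 (SE 0.07). SLC12A5, which encodes the chloride exporter KCC2 of neurons, had 95.6 ± 11.6, 513 ± 47.8, 544 ± 36.9 and 546 ± 79.6 cpm from 1 dph to adults (SD, n = 6) and rose by 2.48 (SE 0.08). CA2, a carbonic anhydrase, rose by 2.46 (SE 0.08). OXSR1, a kinase that regulates these transporters, fell by 0.95 (SE 0.04), and WNK2, a kinase of the same pathway, fell by 0.27 (SE 0.04).

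SLC12A2, which encodes the chloride importer NKCC1, was called between the sexes at 3 ages. It had 54.7 ± 2.66 cpm in males and 31.4 ± 0.70 cpm in females at 1 dph (SD, n = 3 each), a log2 ratio of 0.80 (adjusted p = 4.03e-06 in the edgeR fit). The levels of 20 dph were 55.0 ± 2.11 cpm in males and 36.4 ± 4.42 cpm in females (0.60), and at 65 dph 45.7 ± 6.03 cpm in males and 27.2 ± 0.24 cpm in females (0.75). Adults overlapped, with 37.6 ± 6.26 cpm in males and 34.1 ± 6.10 cpm in females (0.14, edgeR adjusted p = 0.253). The change of the ratio with age was not called (interaction, edgeR adjusted p = 0.179). The study's supplementary tables, as read here, gave no chromosome for SLC12A2 or for UBQLN1, described next. RefSeq's annotation was searched for the subunit genes only, not for these 2. The 4 subunit genes are placed on chromosomes other than Z. The paper reports that Z genes called between the sexes were nearly always higher in males, with mean ratios closest to equal in adults. Whether SLC12A2 or UBQLN1 lies on the Z chromosome was not tested.

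UBQLN1, which encodes ubiquilin 1, a protein that binds receptor subunits and slows their breakdown, was higher in males at all ages, by 1.03, 0.86, 0.88 and 0.27 on the log2 scale from 1 dph to adults. Its interaction of sex and age was called (edgeR adjusted p = 0.00713). The adult call (adjusted p = 0.00897) was lost without adult female replicate 1, without adult male replicate 2, in the adult samples alone, with adjustment per contrast and with DESeq2, and its adjusted p ran from 0.00184 to 1.00 over all alternatives. The other sex calls of these lists were small. SLC32A1, the vesicular GABA transporter, had a log2 ratio of -0.20 at 1 dph (edgeR adjusted p = 0.0251), 1 of 2 identifiers of GABARAPL1, a gene of receptor trafficking, -0.32 at 1 dph (edgeR adjusted p = 0.0342), and PLCL1 -0.24 in adults (edgeR adjusted p = 0.0419). With Benjamini-Hochberg adjustment per contrast over all genes, edgeR's p was 0.135 for SLC32A1, 0.171 for GABARAPL1 and 0.708 for PLCL1. Each of these 3 calls was lost with DESeq2, with adjustment per contrast and in the 6 samples of its age alone. That of SLC32A1 was also lost without female replicate 3 or male replicate 1 or 3 of 1 dph (adjusted p up to 0.640 over all alternatives), that of GABARAPL1 without female replicate 2 or 3 or male replicate 2 or 3 of 1 dph (up to 0.547), and that of PLCL1 without adult female replicate 1 or 3 or any adult male replicate (up to 1.00).

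The genes most alike in course were sought among 3471 tested genes with a symbol, by Pearson's r of mean log2 cpm over the 8 groups, which share the 24 libraries. For GABRD they were LIN7A, a scaffold protein of synapses, AAK1, a kinase of endocytosis, NAPB and NSF, which act together in membrane fusion, and ADAM8, a membrane protease (r of at least 0.999). With 1554 of 3471 genes above 0.9, likeness to GABRD was common. Their rises were smaller, with NSF at 215, 967, 1174 and 1228 cpm from 1 dph to adults.

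For GABRA3, the 5 most alike were EPHB2, a receptor of axon guidance, USP3, TERF1, ZCCHC14 and SAP130 (r from 0.997 to 0.999). EPHB2 had 117, 53.0, 44.3 and 46.4 cpm from 1 dph to adults, a course close to that of GABRA3 also in size. Of the 3471 genes, 886 were above 0.9.

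For GABRB1 they were JADE2, NKX6-2, WDR17, FAM217B and MEIS1 (r from 0.994 to 0.998). NKX6-2, a transcription factor with a role in oligodendrocytes and their myelin in mice, had 2.82, 4.33, 6.88 and 8.79 cpm from 1 dph to adults. JADE2 rose more, with 14.96, 50.5, 130 and 226 cpm, and 20 of 3471 genes had an r above 0.99 with GABRB1, against 509 with GABRD.

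For GABRG3 the best matches were weaker (r from 0.962 to 0.970), namely GPR12, a receptor of neurons, NRBP2, RAPH1, OTULINL and ENTPD2. GPR12 had 3.61, 6.46, 4.74 and 4.95 cpm from 1 dph to adults. Only 184 of the 3471 genes were above 0.9 for GABRG3, the fewest of the 4.

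Markers of cell types also changed with age, and their relation to the courses of the 4 genes was not tested. Of 9 markers of dividing and progenitor cells 8 were found, and all 8 fell after 1 dph (background 37.2% lower). Their summed level was 261 to 466 cpm at the later ages and 1645 to 1940 cpm at 1 dph. The 2 markers of immature neurons summed to 165 to 224 cpm at 1 dph, 31.9 to 58.3 cpm at 20 dph, 19.7 to 24.6 cpm at 65 dph and 13.5 to 19.1 cpm in adults. Markers of oligodendrocytes (4 of 9, CNP, ERMN and MBP among them) summed to 71.6 to 136 cpm at 1 dph, 1993 to 2605 cpm at 20 dph, 1509 to 1773 cpm at 65 dph and 1287 to 1894 cpm in adults. Markers of astrocytes (4 of 8) summed to 1051 to 1493 cpm after 1 dph and 287 to 346 cpm at 1 dph.

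Markers of inhibitory neurons (6 of 10) summed to 378 to 464 cpm at 1 dph, 862 to 940.4 cpm at 20 dph, 1026 to 1128 cpm at 65 dph and 1321 to 1438 cpm in adults. Of their 7 identifiers, 5 rose after 1 dph and 2 fell (background 35.1% higher and 37.2% lower). Those that fell were DLX1 by 1.97 (SE 0.06) and LHX6 by 0.77 (SE 0.08), both transcription factors of developing interneurons. PVALB among them went on rising, with 26.2, 147, 276 and 504 cpm, a slower course than that of GABRD. Markers of excitatory neurons (3 of 5) summed to 1276 to 1637 cpm after 1 dph and 1011 to 1156 cpm at 1 dph. That rise was carried by SLC17A6, a vesicular glutamate transporter, which rose by 2.71 (SE 0.06), whereas the transcription factors NEUROD6 and NEUROD2 fell by 1.13 (SE 0.05) and 0.85 (SE 0.05). No marker of these found lists was at 0 in all samples, none of microglia or choroid plexus was found by symbol, and the part of cell composition in the courses was not tested.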

How the data were processed

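RNA of 24 pooled telencephalon samples was sequenced as stranded mRNA libraries with single-end reads of 75 bp. The authors mapped the reads with STAR 2.5.2b to the Ensembl zebra finch genome (release 87), counted them per gene with htseq-count of HTSeq 0.6.0 and deposited raw counts, with no normalization or filter on genes. The strand setting of the counting is not given in the sources used here. All 24 columns were assigned by sample title. Symbols and chromosomes come from the study's supplementary tables as read here, some of them cut short. They gave a symbol for 3472 of the 13891 tested genes. The reference table holds no Ensembl identifiers and could add none.

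The tests ran in edgeR 4.0.16 under R 4.3.3 (TMM, a filter of 1 cpm or more in 3 or more samples, quasi-likelihood model of 8 group means over all 24 samples). An omnibus F test over 5 contrasts, the later ages over 1 dph and male over female at each of the 4 ages, was adjusted by Benjamini-Hochberg at 0.05, and Holm's method at 0.05 followed within each passing gene. A gene can pass the omnibus test by its change with age alone. Its sex p-values are then adjusted only over the 5 contrasts of that gene, not over all genes. The age steps and the interaction (3 degrees of freedom) were adjusted by Benjamini-Hochberg over all genes. Log2 cpm use a prior count of 2. Intervals are 95% intervals of the fit. A value of 3 counts corresponds to 0.104 to 0.180 cpm, for counting error only. The script was tested on simulated data.

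The 4 genes, the gene lists and the rules were chosen with earlier results of these data known. Named are the 4 genes, all other tested subunit genes, in each other list the called genes with the 2 highest and the 2 lowest log2 fold changes after 1 dph, list genes with a called sex difference, and the 5 genes most alike to each of the 4. Some genes that this rule names are not reported here. Replicates differed beyond sampling noise (chi-square of at least 6.62 per gene). The samples are separate pools of birds, and p-values measure the spread between pools. Alternatives were DESeq2's size factors, library totals, no filter, DESeq2 1.42.0, adjustment per contrast, one sex alone (a contrast within the same fit), one age alone, and each sample left out. Figures were drawn with matplotlib 3.10.9 in Python 3.11.15. No sequences are shown, and the promoters and proteins of the genes were not analysed here.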

Additional observations from a re-analysis of the deposited data

Results flagged for a closer look

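In adults, 1 sample stood apart for GABRA4, which encodes the alpha 4 subunit and lies beside GABRB1. Female replicate 1 had 45.3 cpm, and the nearest of the other 5 adult samples had 38.9 cpm and the lowest 36.5 cpm, so that the gap was 0.721 of the whole range and past Dixon's 95% limit for 6 samples. This was the only case among 44 sets of 6 samples, 11 subunit genes at 4 ages, and chance alone gives about 1 in 20. None of the 16 sets of the 4 genes described above held such a sample.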

How the results depend on the processing

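With library totals in place of TMM, the changes with age were 5.21 (GABRD), -1.41 (GABRA3), 1.36 (GABRB1) and 0.30 (GABRG3) on the log2 scale, and the steps to 20 dph 4.76, -1.29, 0.70 and 0.48 in that order of genes. The highest over the lowest mean of an age was then 46.8 for GABRD, 2.89 for GABRA3, 3.74 for GABRB1 and 1.40 for GABRG3. The directions were those with TMM. The step of GABRG3 from 65 dph to adults was -0.011 in males alone and ran from -0.035 to 0.15 when single samples were left out. The log2 ratio of GABRA3 between the sexes at 20 dph ran from -0.26 to -0.10 with 0 to 1 of the 4 genes called, the 1 being GABRA3 without male replicate 2. Between the sexes, Benjamini-Hochberg per contrast called 515 genes at 1 dph, 376 at 20 dph and 6 in adults, against 776, 618 and 299 in the stagewise test. The 6 samples of an age alone gave 427 genes at 1 dph, 377 at 20 dph, 412 at 65 dph (677 in the fit of all samples) and 5 in adults, and DESeq2 gave 16 in adults and 287 for the interaction (146 with edgeR). Leaving out single samples gave 128 to 389 genes in adults and 82 to 239 for the interaction, with 128 and 239 without adult male replicate 2. The interaction called 82 genes without adult female replicate 2, 86 without adult male replicate 1 and 95 without adult male replicate 3. Males alone gave 2247 genes and females alone 2494 at the step from 20 to 65 dph (4163 with both), and 1050 and 1623 at the step to adults (2948 with both). The calls of GABRA4 at the step from 20 to 65 dph in females alone and of GABRA5 in either sex alone were lost. Of the 5 genes most alike, Spearman's rho kept 0 for GABRD and 1 each for GABRA3, GABRB1 and GABRG3, and Pearson's r over 24 samples kept 1 for GABRD, 1 for GABRA3, 2 for GABRB1 and 2 for GABRG3. The cause of these differences was not tested. Symbols from the supplementary tables alone gave no separate value, as these were the only source. No paired analysis was possible because the pools carry running numbers that pair no samples and each pool holds other birds. Of the 4 genes, the depth was lowest for GABRB1 and GABRG3, with 47 to 215 and 83 to 188 reads per library.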

Other observations

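Receptors that work beside the GABA-A receptor also rose after 1 dph. Of 5 symbols of the glycine receptor, another chloride channel, 3 were found and all 3 rose in the stagewise edgeR test (background 35.1%), with a median log2 fold change of 2.39 against 0.53 over the genes with a symbol. GLRA3, an alpha subunit, had 2.90 ± 0.79, 41.6 ± 7.21, 39.5 ± 6.80 and 40.7 ± 8.19 cpm from 1 dph to adults (SD, n = 6) and rose by 3.80 (SE 0.16), and GLRB, the beta subunit, rose by 2.39 (SE 0.07). GLRA4 had the smallest rise, 1.69 (SE 0.08).

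Of 5 symbols of the GABA-B receptor, which acts through G proteins, 3 were found and all 3 rose (background 35.1%), with a median log2 fold change of 1.45 against 0.53 over the genes with a symbol. KCTD16, an auxiliary subunit, rose by 2.08 (SE 0.06) and GABBR2, which couples to the G protein, by 1.45 (SE 0.06). GABBR2 had its highest mean at 20 dph, with 56.7 ± 5.65, 163 ± 10.2, 156 ± 13.2 and 146 ± 11.7 cpm from 1 dph to adults (SD, n = 6). KCTD8, an auxiliary subunit as well, rose by 0.98 (SE 0.05).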
